A study of Rattus norvegicus with 20 samples.

Results

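A set of 10 adipose genes was followed across 20 RNA sequencing libraries of rat lung, 1 library per animal. The genes were Adipoq, Lep, Cfd, Plin1, Cidec, Fabp4, Cidea, Ucp1, Lpl and Pnpla2, 10 of the 19060 genes in the table, and all 10 were present. They were chosen by their measured levels: 4 of the 20 libraries, all from sham-operated animals, held far more of several of these genes than the other 16. Those libraries were Sham replicates 1 and 2 and Sham+VNS replicates 2 and 4. Their excess over the other 16 is therefore how the genes were picked, and it is given as a description with no test.

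The study crossed an operation with a nerve treatment, with 5 animals in each of the 4 groups. Sham animals had the abdomen opened along the midline and the caecum handled without being tied or pierced, while CLP animals had caecal ligation and puncture, a leak of gut contents into the abdominal cavity that models sepsis with acute respiratory distress syndrome (ARDS). Sham+VNS and CLP+VNS animals also had the vagus nerve stimulated electrically on the right side of the neck. Strain, age, sex, time of collection and the way the lung was trimmed were not stated in the sources used here.

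White adipocytes store triglyceride in a large lipid droplet and secrete hormones such as adiponectin and leptin. Brown adipocytes hold many small droplets and burn fatty acids for heat through the mitochondrial uncoupling protein Ucp1. In rodents both kinds of fat lie in the chest, around the heart, the great vessels and the mediastinum. Lung tissue itself uses part of the same machinery: lipoprotein lipase, fatty acid binding proteins and lipolytic enzymes also serve alveolar macrophages, alveolar type 2 cells and capillaries.

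Total counts ran from 13729654 to 14453188 per library, and 3 counts, the floor used here for a gene at 0, correspond to 0.206 to 0.224 CPM, the count scaled to a common library size. The labelled tissue was checked against its markers: 13 of 13 lung cell markers were detected, and their summed level was 35420 to 44620 CPM in the other 16 libraries. It was 36630 CPM in Sham replicate 2, 35330 in Sham+VNS replicate 2, 37840 in Sham+VNS replicate 4 and 25490 in Sham replicate 1. Sham+VNS replicate 2 was just under the range of the other 16 and Sham replicate 1 far under it, where 8 of the 13 lung markers were lower than in any of them, against 8.74% of all genes in the table. The surfactant gene Sftpc was at 9550 CPM there and at 10960 to 15860 CPM in the other 16. In bulk tissue fewer cells of a type and less RNA per cell cannot be told apart.

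The sequences just upstream of Adipoq and Ucp1 are shown because Adipoq was high in all 4 libraries and Ucp1 in only 2 of them. Each window runs from 250 bases before to 50 bases after the RefSeq start in assembly GRCr8, on the minus strand, at chr11:91240120-91240419 for Adipoq and chr19:41721372-41721671 for Ucp1. Capitals mark CCAAT or its reverse complement ATTGG in Adipoq and the TATA box TATAAA in Ucp1.
Adipoq: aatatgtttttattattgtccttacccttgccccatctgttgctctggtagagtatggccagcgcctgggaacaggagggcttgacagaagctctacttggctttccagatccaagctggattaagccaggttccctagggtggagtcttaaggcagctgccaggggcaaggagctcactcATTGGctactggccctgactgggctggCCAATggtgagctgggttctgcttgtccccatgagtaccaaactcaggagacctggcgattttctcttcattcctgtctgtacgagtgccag
Ucp1: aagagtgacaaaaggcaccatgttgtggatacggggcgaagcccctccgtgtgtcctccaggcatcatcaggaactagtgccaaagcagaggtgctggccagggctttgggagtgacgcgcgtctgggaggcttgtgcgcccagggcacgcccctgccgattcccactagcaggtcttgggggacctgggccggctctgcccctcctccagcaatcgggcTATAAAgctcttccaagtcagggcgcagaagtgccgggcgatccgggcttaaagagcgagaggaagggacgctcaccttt
In the Ucp1 window TATAAA lay 30 bases before the start. It was searched on both strands and occurs in 14.2% of 33469 rat promoter windows of this length. The Adipoq window held CCAAT 42 bases before the start and ATTGG 69 bases before it, and this motif occurs in 37.5% of windows. Of the 10 genes 8 had such a window, Fabp4 and Lpl being the others, and of those 8 the TATA box was present in Ucp1 alone, CCAAT in 4 (Adipoq, Cidea, Lep, Plin1) and AGGTCA, a nuclear receptor half-site, in 0 against 16.2% of all windows. These are matches of letters and were not related to the levels.

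The adipocyte hormones were higher in the 4 libraries than in any of the rest. Adipoq (gene ID 246253), which encodes adiponectin, had 4042 counts (285 CPM) in Sham replicate 1, 139 (9.72 CPM) in Sham replicate 2, 1384 (96.3 CPM) in Sham+VNS replicate 2 and 227 (16.2 CPM) in Sham+VNS replicate 4. The other 16 libraries together had 32 counts, from 0 to 1.29 CPM with a median of 0.0705 CPM, 18 of them in CLP+VNS replicate 3. All 4 libraries were thus above the other 16, which were at or near the floor except for CLP+VNS replicate 3. Lep (gene ID 25608), the gene for leptin, the satiety hormone of white fat, had 520, 26, 207 and 14 counts in the same order, or 36.7, 1.82, 14.4 and 0.999 CPM. The other 16 held 19 Lep counts together and none passed 0.352 CPM. The order of the 4 libraries was the same for Adipoq and Lep except that Sham+VNS replicate 4 exceeded Sham replicate 2 for Adipoq and fell short of it for Lep.

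Cfd (gene ID 54249), which encodes adipsin or complement factor D, was high in only 2 of the 4. It was at 246 CPM in Sham replicate 1 and 74.4 CPM in Sham+VNS replicate 2, which is 23.3 and 7.04 times the median of the other 16. Sham replicate 2, at 12.3 CPM, and Sham+VNS replicate 4, at 10.9 CPM, lay inside the range of the other 16, 7.05 to 14.8 CPM with a median of 10.6. Cfd was thus present in every library, and the excess was limited to Sham replicate 1 and Sham+VNS replicate 2.

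The genes of the lipid droplet surface followed Adipoq closely. Plin1 (gene ID 25629), the perilipin that gates access of lipases to the droplet, had 2049, 30, 392 and 258 counts, or 145, 2.10, 27.3 and 18.4 CPM. The other 16 libraries held 8 Plin1 counts together, and 11 of them had none. Cidec (gene ID 500292), which fuses droplets and favours large ones, was at 171, 10.1, 61.8 and 17.8 CPM, against 4.21 to 7.18 CPM (median 5.63) in the other 16. All 4 libraries were above every other one for both genes. Fabp4 (gene ID 79451), the fatty acid carrier of adipocytes, macrophages and capillary endothelium, was at 699, 27.8, 162 and 66.4 CPM. Only Sham replicate 1 and Sham+VNS replicate 2 exceeded the other 16, which ran from 4.15 to 111 CPM, the CLP-operated libraries holding the top of that range. Against the other 6 sham-operated libraries alone, at 4.15 to 17.5 CPM, all 4 were higher.

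**Figure D1:**
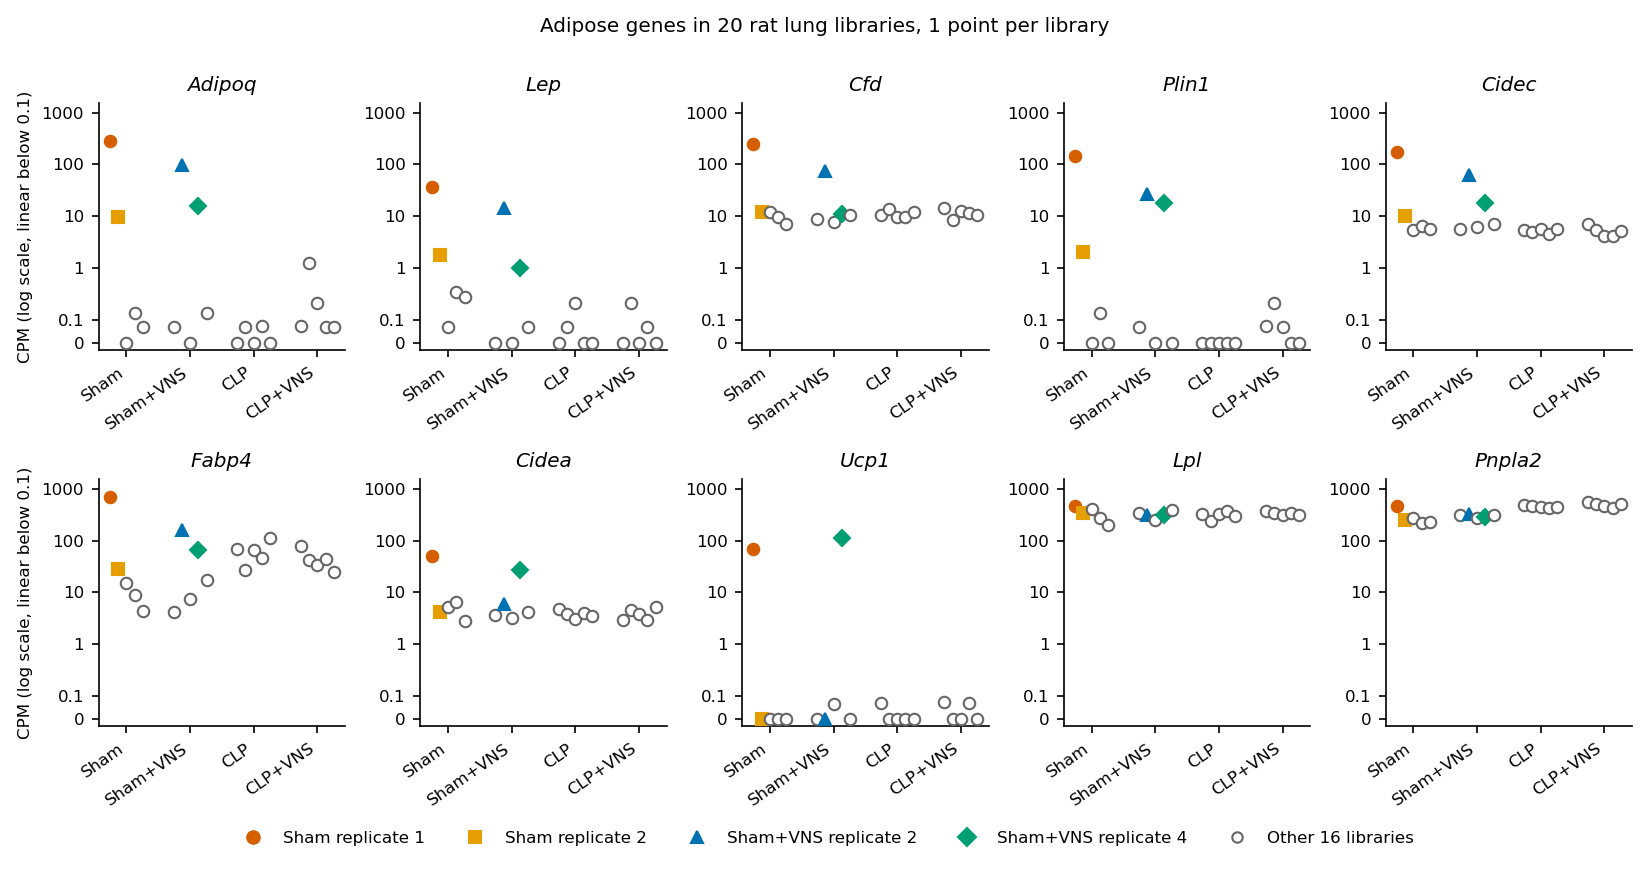
Level of each of the 10 genes in CPM (log scale, linear below 0.1), 1 point per library, by group; coloured symbols are the 4 libraries and open circles the other 16. Adipoq, Lep, Plin1 and Cidec were higher in the 4 than in any other library, Ucp1 was high in Sham replicate 1 and Sham+VNS replicate 4 alone, and Pnpla2 in all 4 and Lpl in 3 of the 4 lay within the range of the other 16.

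The brown fat genes picked out a different pair of libraries. Ucp1 (gene ID 24860) had 958 counts (67.6 CPM) in Sham replicate 1 and 1563 counts (112 CPM) in Sham+VNS replicate 4. It had 0 counts in Sham replicate 2 and in Sham+VNS replicate 2, and the other 16 libraries together had 4 counts, with 12 of them at 0 and none above 0.0746 CPM. It was the only one of the 10 genes with its highest level in Sham+VNS replicate 4. Cidea (gene ID 291541), a droplet protein prominent in brown adipocytes, was at 50.6 CPM in Sham replicate 1 and 27.5 CPM in Sham+VNS replicate 4. It was at 4.20 CPM in Sham replicate 2 and 6.05 CPM in Sham+VNS replicate 2, both within the 2.83 to 6.69 CPM of the other 16. The high libraries for Cidea and for Ucp1 were the same pair.

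Set against Adipoq within a library, Sham+VNS replicate 4 differed from the other 3 of these libraries for Ucp1, Lep and Cidea, though not for every gene. Ucp1 made up 87.3% of the summed Ucp1 and Adipoq counts in Sham+VNS replicate 4 (95% Clopper-Pearson interval 85.7 to 88.8%) and 19.2% in Sham replicate 1 (18.1 to 20.3%). In Sham+VNS replicate 2 it was 0 of 1384 (0 to 0.266%), and in Sham replicate 2 it was 0 of 139 (0 to 2.62%). The floor of 3 counts corresponds to 0.217% and 2.16% in these 2 libraries. The intervals, which cover counting error only, do not overlap between Sham+VNS replicate 4 and Sham replicate 1. Lep ran the other way: its share of summed Lep and Adipoq counts was 5.81% (3.21 to 9.55%) in Sham+VNS replicate 4, 11.4% (10.5 to 12.4%) in Sham replicate 1, 13.0% (11.4 to 14.8%) in Sham+VNS replicate 2 and 15.8% (10.6 to 22.2%) in Sham replicate 2, the last 3 with intervals that overlap. The Cidea share of summed Cidea and Adipoq counts was 62.9% (58.9 to 66.7%) in Sham+VNS replicate 4, 30.2% (23.9 to 37.0%) in Sham replicate 2, 15.1% (14.1 to 16.1%) in Sham replicate 1 and 5.91% (4.76 to 7.24%) in Sham+VNS replicate 2, with the lung level of Cidea included in each. It was higher in Sham replicate 2 than in Sham replicate 1, but rested there on 60 Cidea counts beside 139 Adipoq counts. Those 60 lay inside the 40 to 95 Cidea counts of the other 16, so no contrast with Ucp1 is drawn from this share. Cidec and Cfd did not set Sham+VNS replicate 4 apart. The Cidec share was 52.4% (47.8 to 57.0%) there and 51.1% (45.1 to 57.0%) in Sham replicate 2. For Cfd it was 40.3% (35.3 to 45.4%) there and 43.6% (41.6 to 45.6%) in Sham+VNS replicate 2. Plin1 (53.2%) and Fabp4 (80.4%) had their highest share in Sham+VNS replicate 4, against at most 33.6% and 74.1% in the other 3. On the per-length FPKM scale the ratio of Ucp1 to Adipoq was 9.13 in Sham+VNS replicate 4 and 0.314 in Sham replicate 1.

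Per length, the levels of the 10 genes also had a different order in the 2 libraries with Ucp1. In Sham replicate 1 Fabp4 led at 2018 FPKM, followed by Cfd at 480.2, Adipoq at 249 and Pnpla2 at 247, and Ucp1 stood at 78.0 with Lep lowest at 12.6. In Sham+VNS replicate 4 Fabp4 also led, at 193 FPKM, followed by Pnpla2 at 147 and Ucp1 at 127. Ucp1 was there above Cidea (46.2), Adipoq (13.9) and Cidec (13.4), and Lep was again lowest at 0.340. In Sham+VNS replicate 2, which had no Ucp1 counts, Cfd was at 145 FPKM, Adipoq at 84.2 and Lep at 4.98. The same number of genes stood above all of the other 16 in each library by CPM, by CPM on total counts and by FPKM: 9 of 10 in Sham replicate 1, 4 in Sham replicate 2 and 6 in each of Sham+VNS replicates 2 and 4. Over all genes in the table the share above the other 16 in CPM was 14.3% in Sham replicate 1, 7.72% in Sham replicate 2, 7.85% in Sham+VNS replicate 2 and 8.24% in Sham+VNS replicate 4.

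Transcript estimates for Cidec differed between the same libraries, and they are shown because the table splits this gene into 4 annotated transcripts. NM_001024333 held 56.1% of Cidec counts in Sham+VNS replicate 4 (140.18 of 250 estimated counts), 8.48% in Sham replicate 1, 6.25% in Sham replicate 2 and 0.938% in Sham+VNS replicate 2 (8.33 of 888). In the other 16 libraries summed it held 9.24%, with 28.0% the highest in a single one. NM_001244798 was at 0 in Sham+VNS replicate 4 and took 18.3% in Sham replicate 1, 8.48% in Sham replicate 2 and 21.6% in Sham+VNS replicate 2. It was also at 0 in 6 of the other 16, where it held 13.1% of the summed counts and up to 42.1% in a single library. For Plin1 the transcript NM_001308145 held 446.85 of 2049 counts (21.8%) in Sham replicate 1, 11.3% in Sham+VNS replicate 2, 0 of 258 in Sham+VNS replicate 4 and 0 of 30 in Sham replicate 2. These are estimated splits of reads that the transcripts largely share, so they carry an assignment error that the table does not give.

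**Figure D2:**
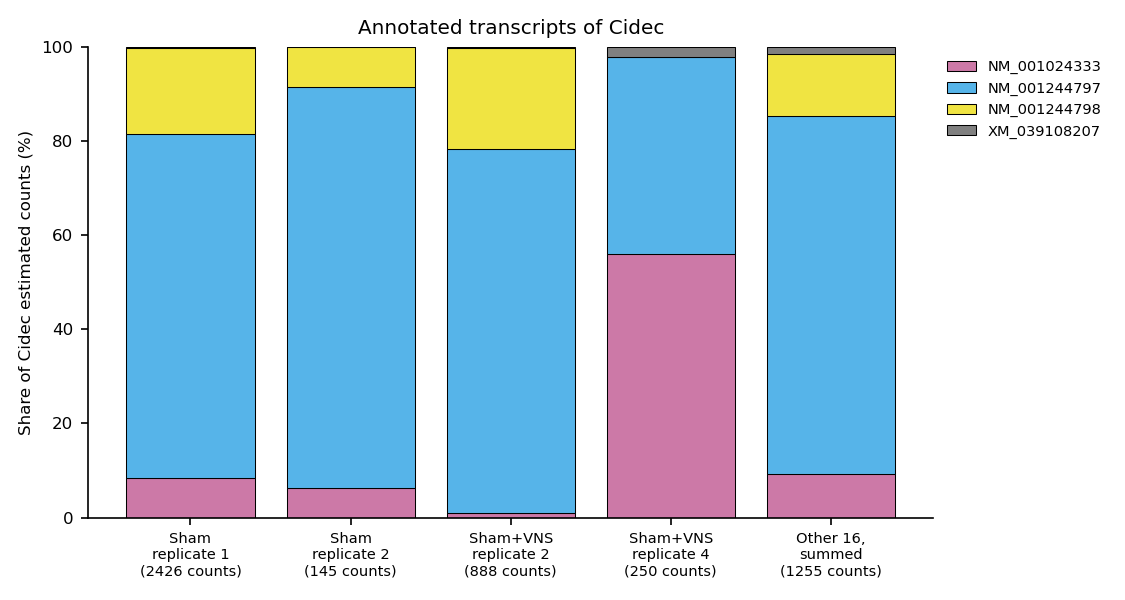
Share of Cidec estimated counts (percent, vertical axis) given to each of its 4 annotated transcripts in the 4 libraries and in the other 16 summed, with the gene count under each bar. NM_001024333 held 56.1% in Sham+VNS replicate 4 and at most 9.24% in the other 4 bars.

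The lipases showed no comparable excess. Lpl (gene ID 24539), the lipoprotein lipase that frees fatty acids from circulating triglyceride, was at 469 CPM in Sham replicate 1, the highest of the 20 and 1.45 times the median of the other 16. Sham replicate 2 (335 CPM), Sham+VNS replicate 2 (306 CPM) and Sham+VNS replicate 4 (315 CPM) lay within the 196 to 399.6 CPM (median 324) of the other 16. Pnpla2 (gene ID 361676), adipose triglyceride lipase, was at 462, 249.8, 328 and 278 CPM, all inside the 213 to 550.4 CPM of the other 16. Both are expressed at 196 CPM or more in every lung library. Sham replicate 2 and Sham+VNS replicates 2 and 4 lay within the range of the other 16 for both genes, and Sham replicate 1 above it for Lpl. Among the sham-operated animals Sham replicate 1 was also the highest for Pnpla2, the other 9 being at 213 to 328 CPM.

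Across the 20 libraries the log2 CPM of Plin1 and Adipoq had a Pearson correlation of 0.98 (0.969 without Sham replicate 1), Lep and Adipoq 0.947 (0.914) and Cidec and Adipoq 0.922 (0.887). Cidea and Ucp1 correlated at 0.918 (0.853), whereas Ucp1 and Adipoq reached 0.656 (0.423). Lpl and Adipoq stood at 0.340, and at 0.0757 without Sham replicate 1. These values describe 20 points of which 16 are mostly at or near the floor for Adipoq, Lep, Plin1 and Ucp1, so the 4 libraries carry them.

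Among 14787 other genes that passed the count filter, the 10 whose log2 CPM followed Adipoq most closely over the 20 libraries were Thrsp (Pearson correlation 0.964), Ca3 (0.946), Agt (0.910), Ucma (0.899), LOC684327 (0.898), Sncg (0.888), Acsl1 (0.886), LOC691485 (0.882), Lum (0.878) and S100b (0.877). Thrsp, a regulator of lipogenesis, was at 189, 6.99, 71.2 and 25.3 CPM in Sham replicates 1 and 2 and Sham+VNS replicates 2 and 4, and at most 0.717 CPM in the other 16. Ca3, a carbonic anhydrase abundant in fat and muscle, was at 1685, 52.6, 393 and 35.6 CPM against 3.08 to 10.8 CPM. Acsl1, which activates long-chain fatty acids, was at 332.5, 40.8, 123 and 64.2 CPM against 31.0 to 43.0 CPM. Without Sham replicate 1 the list shared 9 of its 10 genes, and by rank correlation it shared 1 of 10. The genes were picked over these same libraries, so their high levels where Adipoq was high follow from the choice.

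Ucp1 did not pass the count filter, having counts in too few libraries, so the 10 genes most like it were listed after its values were seen. Among them were Sucla2 (0.913), Cpt1b (0.905), Acadvl (0.888), Hadhb (0.880), Idh3b (0.868), Suclg1 (0.863), Hadha (0.856), Idh3a (0.823) and Ndufab1 (0.820), which encode enzymes of mitochondrial fatty acid oxidation and the citric acid cycle and a respiratory chain protein. Cpt1b, the muscle and brown fat form of the enzyme that admits long-chain fatty acids to mitochondria, was at 29.1 CPM in Sham replicate 1 and 15.9 CPM in Sham+VNS replicate 4. It was at 4.76 CPM in Sham replicate 2 and 5.01 CPM in Sham+VNS replicate 2, inside the 3.87 to 7.76 CPM of the other 16. The shifts of the abundant enzymes were small: Hadhb was at 226 and 219 CPM in the 2 libraries with Ucp1, and at 138 to 176 CPM in the other 16. Without Sham replicate 1 the list shared 8 of 10 genes, and by rank correlation 0 of 10. Here too the high levels in the 2 libraries with Ucp1 follow from the choice.

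**Figure D3:**
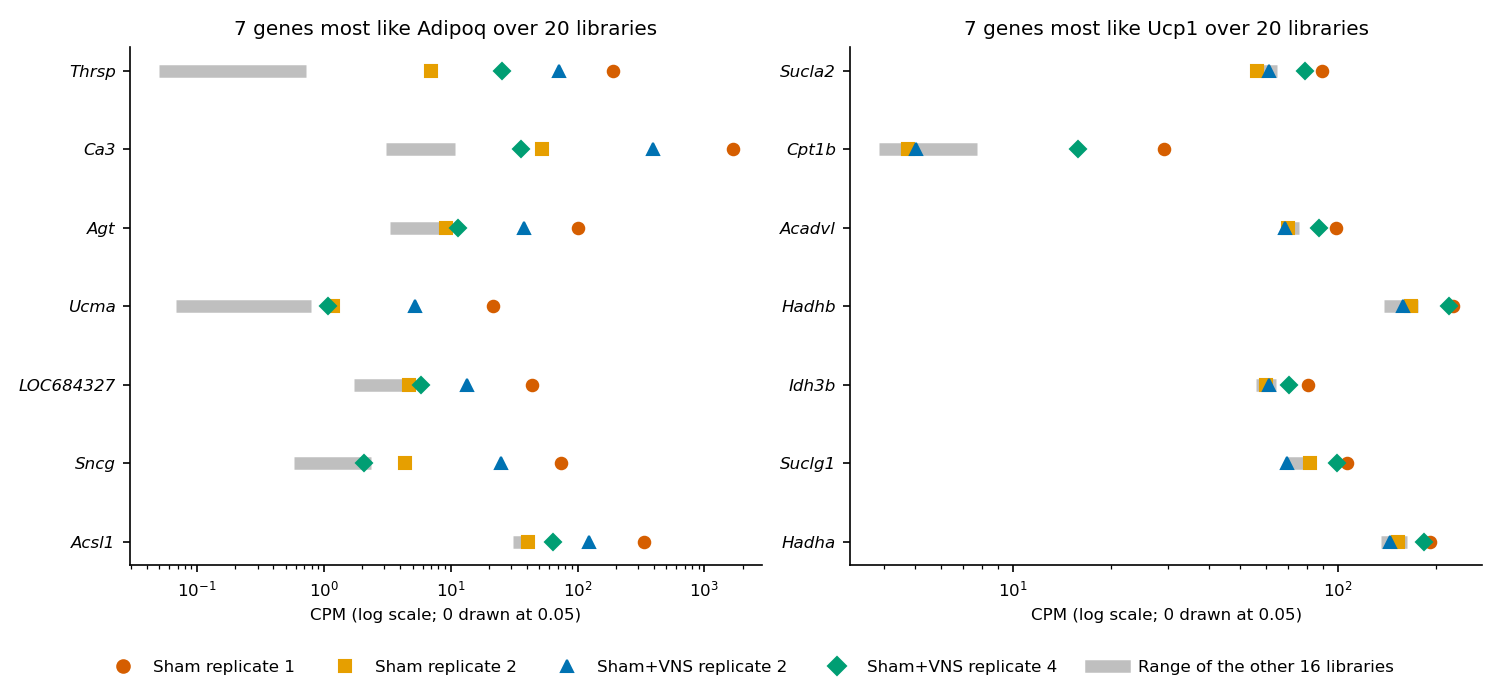
CPM (log scale) of the 7 genes most correlated with Adipoq (left) and with Ucp1 (right) in the 4 libraries, with grey bars for the range of the other 16. Sham+VNS replicate 2 stood clear of the grey bars for the genes like Adipoq and within or next to them for the genes like Ucp1, where Sham replicate 1 and Sham+VNS replicate 4 stood out. The genes were picked by correlation over these same libraries, so this placing follows from the choice.

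Further adipocyte genes moved with the 10. Of 30 markers of adipocytes of any depot, 24 were higher in Sham replicate 1 than in any of the other 16 libraries, 21 in Sham+VNS replicate 2, 12 in Sham+VNS replicate 4 and 8 in Sham replicate 2. These counts and those of the lists that follow stand against 14.3%, 7.85%, 8.24% and 7.72% of all genes in the same libraries. Their most abundant members are also lung genes: the stearoyl-CoA desaturase Scd was at 332, 137, 395 and 161 CPM, with 113 to 219.8 CPM in the other 16, and the fatty acid synthase Fasn, at 443, 487, 591 and 474 CPM, lay inside the 418 to 741 CPM of the other 16. The remaining genes in this paragraph were singled out after their values were seen. Adrb3, the beta-3 adrenergic receptor of adipocytes, was at 39.8, 1.05, 5.01 and 1.07 CPM and had 1 count in the other 16 together. Retn, the gene for resistin, a white fat hormone of rodents, was at 28.8, 1.96, 11.4 and 2.28 CPM, and Aqp7, the glycerol channel of adipocytes, at 29.3, 1.12, 9.46 and 4.85 CPM, with at most 0.642 and 0.0717 CPM in the other 16. Pck1, which makes glycerol phosphate for triglyceride synthesis, was higher in Sham+VNS replicate 4 (37.3 CPM) than in Sham+VNS replicate 2 (12.6 CPM).

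Of the 17 brown adipocyte markers in the table, 9 were above the other 16 in Sham replicate 1, 6 in Sham+VNS replicate 4, 2 in Sham+VNS replicate 2 and 0 in Sham replicate 2. The 4 most abundant of them, Prdm16, Kcnk3, Gk and Acot2, are lung genes too: Prdm16, a brown fat transcription factor, was at 18.5 CPM in Sham replicate 1 and 22.6 CPM in Sham+VNS replicate 4, against 19.3 to 26.1 CPM. Also chosen after their values were seen, Ppargc1a, a coactivator of mitochondrial genes, was at 18.8 CPM in Sham+VNS replicate 4 but at 13.3 CPM in Sham replicate 1, inside the 7.47 to 14.9 CPM of the other 16. Cox8b, a cytochrome oxidase subunit, was at 3.57 CPM in Sham+VNS replicate 4 and 4.66 CPM in Sham replicate 1, with at most 1.55 in the other 16. Of 8 white adipocyte markers, 6, 3, 2 and 2 exceeded the other 16 in Sham replicates 1 and 2 and Sham+VNS replicates 2 and 4. Agt, the angiotensinogen gene, was at 101, 9.16, 37.8 and 11.4 CPM against at most 8.02. Hoxc9, also chosen after its values were seen, was at or below 1 count in every library, and the summed level of this list in the other 16 was set by the natriuretic peptide receptor gene Npr3, which reached 1030 CPM in CLP-operated animals.

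Markers of other tissues were also compared between the 4 libraries and the other 16. In Sham replicate 1, 8 of 8 heart muscle markers were above the other 16, with a summed level of 192 CPM against 3.66 to 61.8, and 7 of 8 mesothelial markers, with 1648 CPM against 330 to 926. No heart muscle marker was above the other 16 in Sham replicate 2, Sham+VNS replicate 2 or Sham+VNS replicate 4, whose sums were 13.0, 7.30 and 7.07 CPM, and the atrial gene Nppa, chosen after its values were seen, was at 0 in each of these. Mesothelial markers above the other 16 numbered 1, 0 and 1 in them, and their sums, 896.5, 624 and 787 CPM, lay inside the range of the other 16. The part of heart muscle and mesothelial tissue in the result for Sham replicate 1 was not tested.

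Of 8 Schwann cell markers, 5, 1, 4 and 2 were above the other 16 in Sham replicates 1 and 2 and Sham+VNS replicates 2 and 4, with sums of 519, 289, 418 and 249 CPM against 209 to 500.2. Of 7 cartilage markers, 5 were above the other 16 in Sham+VNS replicate 4, where Col2a1 was at 2.21 CPM, and 2, 1 and 1 in the others, with sums of 2.89, 1.26, 1.32 and 5.64 CPM against 0.0735 to 1.97. Skeletal muscle markers above the other 16 numbered 2, 2, 0 and 1 of 8 (sums 19.6, 7.13, 4.17 and 5.07 CPM against 1.72 to 6.91), and hepatocyte markers 2, 2, 1 and 1 of 7 (31.5, 31.2, 78.9 and 28.8 CPM against 16.8 to 98.9). Squamous epithelium gave 2, 1, 0 and 0 of 6 (41.4, 36.3, 14.5 and 28.0 CPM against 1.49 to 34.0), and thymocytes 2, 0, 3 and 1 of 7 (2.75, 2.03, 3.34 and 2.14 CPM against 0.784 to 2.35). Thyroid gave 2, 1, 1 and 0 of 6 (29.7, 22.4, 26.2 and 16.9 CPM against 13.8 to 29.3), and lymph node 0 of 7 in all 4 (79.5, 57.6, 79.2 and 59.3 CPM against 35.1 to 101). What these tissues contributed to the adipose levels was not tested.

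**Figure D4:**
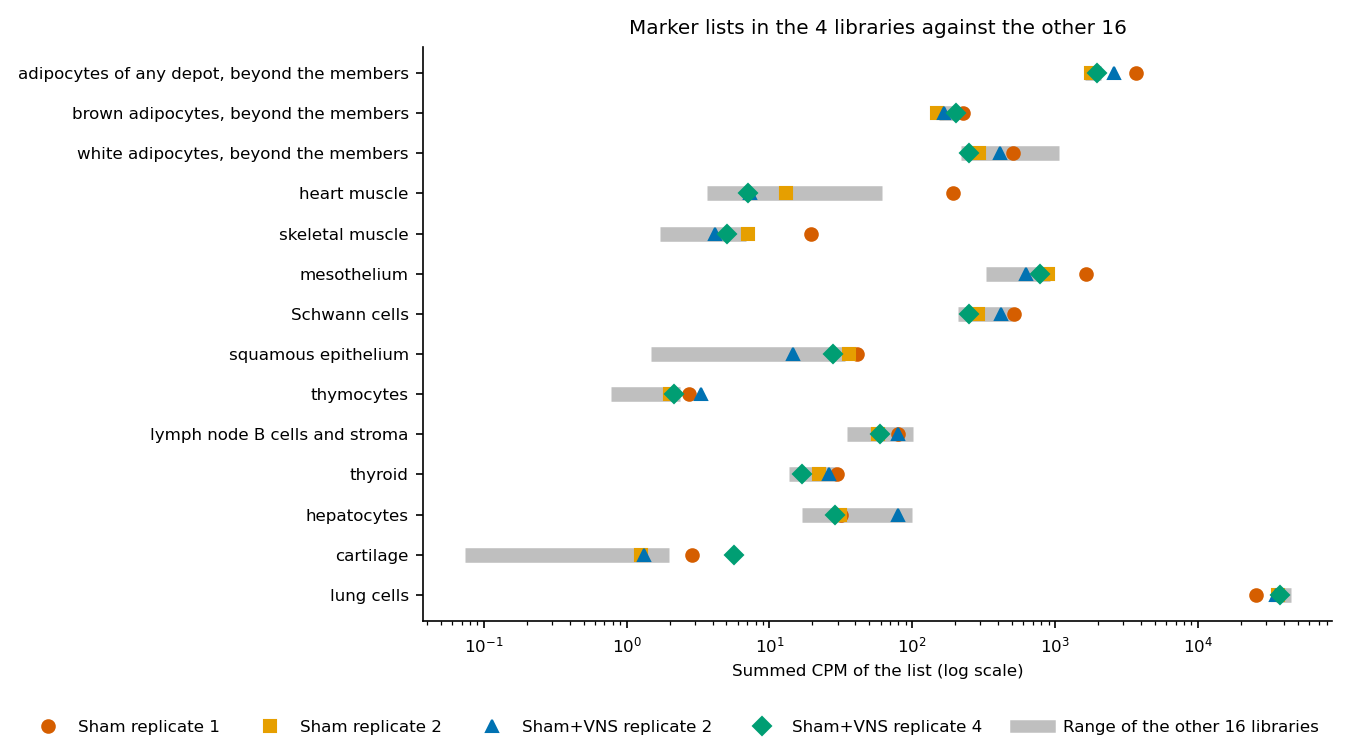
Summed CPM (log scale) of each marker list in the 4 libraries (symbols) and its range in the other 16 (grey bars). Sham replicate 1 lay below the grey bar for lung cells, within it for white adipocytes, lymph node and hepatocytes, and above it for every other list. Sham+VNS replicate 2 was above it for general adipocytes and thymocytes and just below it for lung cells. Sham+VNS replicate 4 was above it for brown adipocytes and cartilage. Sham replicate 2 was above it for skeletal muscle and squamous epithelium and below it for brown adipocytes. For white adipocytes the CLP-operated libraries, at 716 to 1064 CPM, set the top of the bar. Against the other 6 sham-operated libraries, at 219 to 361 CPM, Sham replicate 1 (507 CPM) and Sham+VNS replicate 2 (414 CPM) were higher for this list. Sham replicate 2 (293 CPM) and Sham+VNS replicate 4 (251 CPM) were within them. For general adipocytes Sham+VNS replicate 4 (1961 CPM) was also above those 6, at 1624 to 1844 CPM.

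The group comparisons of these genes rested on the same few libraries. Sham replicate 1 alone held 96.6% of the Adipoq counts of the Sham group, 98.5% of Plin1, 93.5% of Lep, 92.6% of Fabp4, 86.0% of Cidec, 85.7% of Cfd, 72.9% of Cidea and 100% of Ucp1. Of the 10 genes 7 passed the count filter; Lep, Plin1 and Ucp1 did not, and since a gene high in few libraries passes or fails on those libraries, the counts below are not a statement on all 10. Because all 4 libraries are sham-operated and the genes were selected on them, the comparisons with the Sham and Sham+VNS groups are descriptions and not independent evidence of a direction. The p-values rest on the spread between libraries within groups, 1 per animal, which the main fit estimates over all 4 groups together.

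In CLP against Sham, 4 of the 7 genes were called by edgeR's quasi-likelihood test with Benjamini-Hochberg adjustment over all 14794 tested genes, where 40.3% of all genes were called. Pnpla2 rose, from 284.5 ± 102 to 451 ± 28.3 CPM (SD, n = 5 each), and Adipoq, Cfd and Cidec were called as lower. The last 3 were chosen on their high levels in Sham libraries, and Adipoq passed the count filter through those libraries, so their calls follow in part from the choice and nothing is read from them. The edgeR log2 fold change was 0.67 ± 0.15 (SE, adjusted p 0.00183) for Pnpla2, -2.37 ± 0.92 (adjusted p 0.0482) for Cfd and -2.90 ± 0.97 (adjusted p 0.0232) for Cidec. For Adipoq the CLP group had 2 counts and the Sham group 4184, a ratio of 2113.8, and no fitted value is given. The counting interval of 584.8 to 17460.2 leaves out the spread between animals, and Sham replicate 1 held 96.6% of the Sham counts. Cidea (-1.84 ± 0.74, edgeR adjusted p 0.0541), Fabp4 (-1.24 ± 1.13, 0.412) and Lpl (-0.12 ± 0.18, 0.623) were not called. Without Sham replicate 1 the values became 0.11 for Cfd (edgeR adjusted p 0.895) and -0.39 for Cidec (0.634), so these calls ended, as did that for Adipoq, and that for Pnpla2 stayed (0.91, 3.84e-07). Over all alternatives the adjusted p ran from 0.0271 to 0.895 for Cfd, 0.00304 to 0.634 for Cidec and 3.84e-07 to 0.0185 for Pnpla2.

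In CLP+VNS against Sham+VNS 1 of 7 genes was called, against 27.3% of all genes. Pnpla2 rose again, from 302 ± 24.0 to 491 ± 48.6 CPM (SD, n = 5 each; edgeR log2 fold change 0.70 ± 0.15 SE, adjusted p 0.00182). In Sham+VNS against Sham edgeR called 0 of 7 genes and 0% of all genes, with 1185 genes at an unadjusted p below 0.05 and 6 genes called by DESeq2. In CLP+VNS against CLP edgeR called 0 of 7, against 0.027% (4 genes) of all, with 1927 genes at an unadjusted p below 0.05. The interaction of operation and stimulation was called for none of the 7, with edgeR adjusted p from 0.825 to 0.982.

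When the 4 libraries were left out together, which lowers the sham side of these genes by construction, 2 of the 6 genes still tested were called in CLP against Sham, where 33.4% of all genes were called. They were also 2 in CLP+VNS against Sham+VNS, where 21.6% were called. The 2 were Pnpla2 and Fabp4 in both comparisons, and Adipoq no longer passed the count filter.

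Fabp4 changed sign and was called once the 4 libraries were left out, where Cfd and Lpl in CLP against Sham and Cfd and Cidea in CLP+VNS against Sham+VNS changed sign without being called. In the Sham group it was at 699, 27.8, 15.3, 8.80 and 4.35 CPM in replicates 1 to 5 and in Sham+VNS at 4.15, 162, 7.41, 66.4 and 17.5 CPM. In CLP it was at 69.5, 26.8, 66.1, 45.8 and 111 CPM in replicates 1, 3, 4, 5 and 6, and in CLP+VNS at 78.0, 42.0, 33.5, 43.3 and 24.5 CPM in replicates 1, 3, 5, 8 and 11. Outside the 4 libraries the 6 sham-operated animals, at 4.15 to 17.5 CPM, did not overlap with the 10 CLP-operated ones, at 24.5 to 111 CPM. The 4 themselves, set apart for high adipose genes, lay inside that CLP range or above it. How many of all genes separate in this way was not counted, so nothing is read from the separation. With the 4 left out, 33.4% of all genes were called in CLP against Sham. With all 20 libraries the edgeR log2 fold change of Fabp4 was -1.24 in CLP against Sham and -0.22 ± 1.14 in CLP+VNS against Sham+VNS (adjusted p 0.919). With the 4 left out it was 2.75 ± 0.59 (edgeR adjusted p 0.00270) and 2.19 ± 0.58 (0.0144), and with Sham replicate 1 alone left out 2.18 in CLP against Sham (0.0574). For Fabp4 all 4 were above the other 6 sham-operated libraries, so leaving them out lowers its sham side by construction. Its change of sign and its calls are thus descriptions only. Over all alternatives its adjusted p in CLP against Sham ran from 0.00270 to 0.898, and in CLP+VNS against Sham+VNS from 0.0144 to 0.9799.

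Pnpla2 was higher in CLP than in Sham and in CLP+VNS than in Sham+VNS under every alternative run. It was at 462, 249.8, 272, 213 and 225 CPM in Sham, 314, 328, 274, 278 and 314 CPM in Sham+VNS, 494, 454, 448, 414.5 and 446 CPM in CLP and 550.4, 501, 472, 420.2 and 513 CPM in CLP+VNS. Apart from Sham replicate 1, every sham-operated library was below every CLP-operated one. The share of all genes that separate in this way was not counted, so nothing is read from the separation. In CLP against Sham 40.3% of all genes were called with all 20 libraries and 33.4% with the 4 left out. Leaving out the 4 takes out Sham replicate 1, the highest Sham library for Pnpla2, and so lowers the Sham mean. With the 4 left out the edgeR log2 fold change of Pnpla2 was 0.93 ± 0.10 in CLP against Sham (adjusted p 8.69e-06) and 0.70 ± 0.09 in CLP+VNS against Sham+VNS (adjusted p 0.000119). Lpl means were 335 ± 106 CPM in Sham, 319 ± 51.3 in Sham+VNS, 308 ± 49.3 in CLP and 334.5 ± 23.2 in CLP+VNS (SD, n = 5 each), and these groups overlapped.

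**Figure D5:**
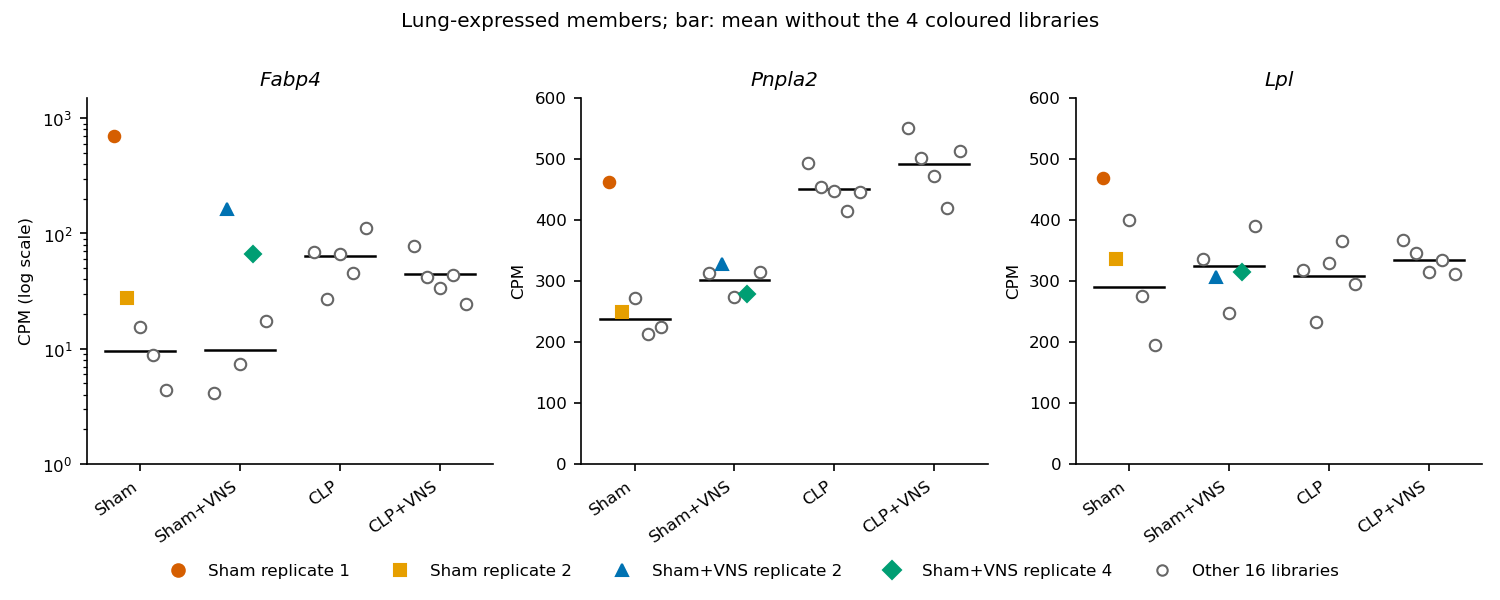
CPM of Fabp4 (log scale), Pnpla2 and Lpl (linear from 0) by group, 1 point per library; coloured symbols are the 4 libraries, and the bars are group means without them. The open circles of Fabp4 and Pnpla2 do not overlap between sham-operated and CLP-operated animals, while those of Lpl do. The coloured symbols of Fabp4 lie inside or above the range of the CLP-operated animals. The share of all genes that separate in this way was not counted, so nothing is read from the separation.

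Genes that work with the 10 were called in both directions after CLP. The counts of each list stand against the share of all genes: 19.8% rose and 20.5% fell in CLP against Sham (16.8% and 16.6% with the 4 left out), and 13.9% rose and 13.4% fell in CLP+VNS against Sham+VNS (10.6% and 11.0%). A list of a few genes with a share near these is no result about the list. Each list is given with all 20 libraries and with the 4 left out, and values in brackets are log2 fold changes with adjusted p-values from edgeR over all 20. In CLP against Sham 2 of 13 tested genes of lipolysis and its control rose and 5 fell (median log2 fold change -0.36, all genes -0.01), and with the 4 libraries left out 1 rose and 5 fell. The counts were 1 up and 4 down in CLP+VNS against Sham+VNS in both fits. Of the 4 most abundant members of this list, Abhd5, the activator of Pnpla2, rose (0.31, edgeR adjusted p 0.000559) and Mgll, monoacylglycerol lipase, fell (-1.13, 4.36e-07), while hormone-sensitive lipase Lipe (-0.36, 0.0962) and the droplet coat gene Plin2 (0.27, 0.132) were not called. G0s2, an inhibitor of Pnpla2 chosen after its values were seen, fell (-1.80, 2.01e-06), and was at 15.4 to 26.9 CPM in the other 6 sham-operated libraries. Among partners of Lpl 4 of 7 rose and 0 fell, also with the 4 left out (median 0.24 and 0.25), and in CLP+VNS against Sham+VNS 2 rose and 0 fell in both fits. Angptl4, which inhibits Lpl, rose by 1.84 on the log2 scale (edgeR adjusted p 0.00164), Sel1l, which helps Lpl fold, by 0.24 (0.000501), the protease gene Furin by 0.30 (0.00108) and the fatty acid transporter Cd36 by 0.52 (0.00351).

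For triglyceride and fatty acid synthesis the balance in CLP against Sham differed between the fits: 2 of 15 rose and 4 fell with all 20 libraries (median -0.21), and 5 of 14 rose and 2 fell without the 4 (median 0.06). With stimulation, in CLP+VNS against Sham+VNS, 2 of 15 rose with all libraries and 4 of 14 without the 4, and 0 fell in either fit. In CLP against Sham Fasn rose in both fits (0.42 and 0.39, edgeR adjusted p 0.00079 and 0.00703), whereas the citrate lyase Acly (-0.03, 0.687), Scd (-0.42, 0.343) and the acyltransferase Gpam (0.13, 0.327) were not called. Of the 27 tested markers of adipocytes beyond the 10 genes, some of which are also in the synthesis list, 2 were up and 7 down in CLP against Sham with all libraries (median -0.41), and 7 up and 2 down of 26 without the 4 (median 0.09). The counts in CLP+VNS against Sham+VNS were 1 up and 1 down, and 5 up and 1 down without the 4. Among 4 adipokine receptors and Socs3, an inhibitor of leptin signalling inside the cell, 2 of 5 rose and 0 fell in CLP against Sham in both fits: Socs3 (1.26, edgeR adjusted p 2.88e-05) and the adiponectin receptor Adipor1 (0.21, 0.000772), while Adipor2 (0.13, 0.194) and the leptin receptor Lepr (-0.27, 0.267) were not called. Socs3 and Adipor1 also rose in CLP+VNS against Sham+VNS, and Lepr fell there (-0.60, edgeR adjusted p 0.0257).

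Around Cfd, the protease that cuts factor B, 3 of 6 genes of the alternative complement pathway rose and 0 fell in CLP against Sham with and without the 4 libraries (median 0.54 and 0.73), and likewise 3 and 0 in CLP+VNS against Sham+VNS. In CLP against Sham they were C3 (1.45, edgeR adjusted p 1.33e-05), factor B gene Cfb (1.92, 7.18e-06) and properdin gene Cfp (0.90, 6.99e-07). Cfd itself, outside the 4 libraries, was at 9.58 ± 2.54 CPM in Sham (SD, n = 3), 9.13 ± 1.40 in Sham+VNS (n = 3), 11.1 ± 1.84 in CLP (n = 5) and 11.6 ± 2.31 in CLP+VNS (n = 5), and its log2 fold change there was 0.21 ± 0.19 (SE, edgeR adjusted p 0.433). Of 8 adipocyte transcription factors 3 rose and 1 fell in CLP against Sham in both fits, and in CLP+VNS against Sham+VNS 4 rose and 1 fell with all libraries and 3 and 0 without the 4. Cebpb (0.94, edgeR adjusted p 9.59e-07) and Cebpd (1.54, 3.09e-07), which are also acute phase regulators, rose, and Cebpa (-0.17, 0.143) and Rxra (0.10, 0.0801) were not called.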

How the data were processed

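Lung RNA of 20 rats was sequenced as strand-specific 150 bp paired-end libraries, per the labels' protocols. Tables by gene and by transcript were deposited, and per the file headers they hold FPKM and TPM values, estimated counts (expected counts, of which 91.5% are whole numbers) and a normalized signal made from the counts. Reads were aligned to mRatBN7.2, per the submitters' processing notes, while aligner, counter and annotation were not stated in the sources used here. TPM, the normalized signal and the authors' group averages were not used.

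Rounded counts were fitted in R 4.3.3 with edgeR 4.0.16 (filterByExpr with a minimum count of 10, TMM, robust quasi-likelihood, 4 group means over 20 libraries, 16 residual degrees of freedom). This left 14794 genes, called two-sided at a Benjamini-Hochberg adjusted p below 0.05. Levels are CPM on TMM-scaled totals, and correlations used log2 CPM with a prior count of 2. FPKM served only for levels per length. Counts are limited by a floor of 3 counts, and 95% Clopper-Pearson intervals cover counting error only. Promoter windows are from RefSeq (GRCr8), and beyond the 2 windows printed no coordinates are given, since the files' build differs.

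The 10 genes and all lists were chosen with earlier results of these data known. Named genes are the 10, the 4 most abundant members of each list and the 10 genes most correlated with Adipoq. Some genes under these rules are not reported here. Genes outside them are marked as chosen after their values were seen. The lists held 3 brown and 2 white adipocyte markers, 1 skeletal muscle marker, 2 squamous markers and 1 Lpl partner that were not analysed here. Alternatives were RLE and total-count scaling, no filter, the replicate block, fits of 2 groups, DESeq2 1.42.0, each library left out and the 4 libraries left out together.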

Additional observations from a re-analysis of the deposited data

Results flagged for a closer look

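Within a group of 5 libraries, a level was picked out when the gap between the highest or lowest library and its nearest neighbour took up more of the group's range than Dixon's 95% limit allows. Chance picks out about 1 in 20 groups. Of 33 gene and group combinations examined 16 were picked out, and since the genes were selected for such libraries this number is a description. Of these 9 were in Sham replicate 1: Adipoq 285 CPM, Lep 36.7, Cfd 246, Plin1 145, Cidec 171, Fabp4 699, Cidea 50.6, Ucp1 67.6 and Pnpla2 462. In Sham+VNS replicate 2 there were 4: Adipoq 96.3 CPM, Lep 14.4, Cfd 74.4 and Cidec 61.8. In Sham+VNS replicate 4 they were Cidea at 27.5 CPM and Ucp1 at 112 CPM. In the CLP-operated animals the only one was Adipoq in CLP+VNS replicate 3, at 1.29 CPM or 18 counts. Sham replicate 2 was picked out for none of the genes. Sham replicate 1 was the highest Sham library for each gene, so Sham replicate 2 could not be picked out as high by this rule.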

How the results depend on the processing

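Of 740 comparisons of a member value with an alternative, 668 kept direction and side of the threshold, 24 lost it, 9 gained it and 39 changed sign. In CLP against Sham 4 of 7 tested genes were called. This became 1 of 7 with the replicate block, 1 of 6 with only those 2 groups fitted and 2 of 6 with the 4 libraries left out. Over the single libraries left out it ran from 1 to 7, the 1 being without Sham replicate 1. The 7, of 9 tested, were without Sham replicate 3, 4 or 5, where Cidea, Lep and Plin1 were added. Lep and Plin1 passed the count filter there through the libraries where they are high, so nothing is read from that count. All genes called in those fits numbered 6003, 5386 and 5402 (main 5955). In CLP+VNS against Sham+VNS 1 became 2 with the 4 left out, 2 with DESeq2 and 1 to 3 over single libraries, the 3 being without Sham replicate 1. In CLP+VNS against CLP DESeq2 called 1 of the 6 genes it gave an adjusted p, Plin1, on 0 counts in CLP and 5 in CLP+VNS. Over all genes, CLP+VNS against Sham+VNS fell from 4044 to 2109 calls with the replicate block. Sham+VNS against Sham went from 0 to 1 with 2 groups fitted, 6 with DESeq2 and 0 to 2 over single libraries. CLP+VNS against CLP went from 4 to 0 with total-count scaling, the replicate block or 2 groups, 7 with the 4 left out, 140 with DESeq2 and 0 to 277 over single libraries, the 277 being without CLP+VNS replicate 1. With total-count scaling 38.4% of called genes were higher in CLP against Sham (main 49.1%) and 41.4% in CLP+VNS against Sham+VNS (main 50.9%). The cause of these changes was not tested.

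Signs that changed with the replicate block were Fabp4 at 0.30 in CLP against Sham, 0.68 in CLP+VNS against Sham+VNS and 0.040 in CLP+VNS against CLP, Adipoq at 0.64 in Sham+VNS against Sham, and Cfd at -0.20 and Cidec at 0.0077 in CLP+VNS against CLP. The replicate numbers are not stated to pair animals, and same-numbered libraries did not deviate together: over 22 pairs the correlation ran from -0.163 to 0.177 (median 0.00433), with 3 above 0.1. With the 4 libraries left out the signs that changed were Cfd 0.21, Lpl 0.083 and Fabp4 2.75 in CLP against Sham, Cfd 0.34, Cidea 0.072 and Fabp4 2.19 in CLP+VNS against Sham+VNS, and Lpl 0.16, Cidec 0.12 and Fabp4 0.029 in Sham+VNS against Sham.

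Over single libraries left out, log2 fold changes that crossed 0 ran as follows. In CLP against Sham they ran from -2.65 to 0.11 for Cfd, -1.55 to 2.18 for Fabp4 and -0.26 to 0.029 for Lpl. In CLP+VNS against Sham+VNS the ranges were -1.18 to 0.28 for Cfd, -0.52 to 0.89 for Fabp4 and -0.0099 to 0.15 for Lpl. In Sham+VNS against Sham they were -3.85 to 3.16 for Adipoq, -2.58 to 1.13 for Cfd, -1.69 to 0.91 for Cidea, -2.10 to 1.5 for Cidec, -2.66 to 1.86 for Fabp4, -0.22 to 0.075 for Lpl and -0.0017 to 0.32 for Pnpla2. In CLP+VNS against CLP they were -0.043 to 0.15 for Cfd, -0.11 to 0.11 for Cidea and -0.15 to 0.052 for Cidec. A gene at 0 could be present at up to 0.206 to 0.224 CPM.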
